A study of Mus musculus with 12 samples.

Results

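The proteasome is the large protease of the cytosol and nucleus that degrades proteins tagged with ubiquitin, and the genes described here encode its subunits, its assembly chaperones, its activators and its inhibitor. Members were the protein-coding genes whose mouse symbol starts with Psm, goes on with a letter from a to g and then a digit, with the maturation factor *Pomp* added. There were 51 such genes among the 54232 genes of the count table, and 50 of them exceeded 2 reads in no fewer than 6 of the 12 livers, as did 17509 genes of the whole table, which were the genes tested. *Psmb11*, the catalytic subunit of the thymus, had 0 reads in all 12 livers and was not detectable at this depth. *Psmc3ip* matches the name pattern but encodes a factor of meiotic recombination, and the interferon-inducible immunoproteasome subunits *Psmb8*, *Psmb9* and *Psmb10* were taken apart, which leaves 46 members. The sums and the median log2 fold change over members below use these 46. Counts of members called, at an unadjusted p under 0.05 or without overlap are over all 50 tested. Where *Psma8* was left out as well, 45 were used.

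Liver mRNA of 6 WT and 6 *Marchf6* LKO (LKO) male mice was sequenced, with 1 library per mouse, to compare liver transcripts with and without *Marchf6* in hepatocytes. *Marchf6* encodes a ubiquitin ligase of the endoplasmic reticulum membrane that marks proteins for the proteasome. Both groups carried the floxed *Marchf6* allele on both chromosomes. The WT mice were *Marchf6* fl/flAlbuminCre- and the LKO mice were their *Marchf6* fl/flAlbuminCre+ littermates, with Cre driven by the albumin promoter. All mice were C57Bl/6J males of 10 weeks on chow, fasted for 4 h before sacrifice, and the groups differed in no treatment. Whole liver was used, so cells that do not express albumin kept the gene, and the study's methods name the floxed exon as the third in one sentence and as the second in another. The libraries held 14860414 to 22111926 reads assigned to genes, and values are given below as CPM after scaling by the trimmed mean of M-values (normalized CPM). The library numbers of the WT mice all come before those of the LKO mice, so genotype and library order cannot be told apart.

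*Marchf6* itself, listed under its older symbol *March6*, had normalized CPM from 226 to 247 in WT livers (median 244) and from 204 to 249 in LKO livers (median 227). The groups overlapped, and 1 of 6 LKO livers lay above the WT median. The log2 fold change (LKO minus WT) was −0.093 with a standard error (SE) of 0.060 and a 95% interval of −0.22 to 0.036, and the edgeR adjusted p was 0.585. A count summed over all exons of a gene does not show whether the floxed exon was removed, so these values do not check the labels. The tissue label was checked with 8 hepatocyte markers, which were all measured and together held 101210 to 124910 normalized CPM in WT and 93615 to 103540 in LKO livers, with albumin (*Alb*) the most abundant. Since each library came from a different mouse, p-values below measure the spread between mice.

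In the proteasome, a barrel-shaped core particle cleaves proteins at active sites inside its beta rings, and alpha rings at both ends close the entrance. A regulatory particle binds ubiquitinated proteins, removes the ubiquitin, unfolds the proteins with a ring of ATPases and feeds them into the core. Dedicated chaperones build both particles, cells raise all subunits together through the transcription factor NFE2L1 when proteasome activity is short, and interferon gamma replaces the catalytic subunits with those of the immunoproteasome, which in liver are most abundant in immune cells.

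LKO replicate 1 stood apart from the other 11 livers and is described before the comparison. Each member's log2(CPM + 0.5) was set against its WT mean, over the 45 members left when *Psma8*, which had few reads, was left out as well. The median of these deviations was 0.29 in LKO replicate 1, against 0.0031 to 0.11 in the other LKO livers and −0.076 to 0.11 in WT livers. The same median over all genes tested lay between −0.0039 and 0.011 in every liver. Of the 45 members, 32 (71.1%) had their highest value in LKO replicate 1, which held the highest value of 13.7% and the lowest of 13.2% of all genes tested, the largest share of any liver in both directions. LKO replicate 6 was highest for 5 members, LKO replicates 2, 3 and 4 and WT replicate 2 for 2 each, and the remaining livers for 0. At the other end, WT replicate 6 held the lowest value of 15 members, WT replicate 4 of 11 and WT replicate 5 of 8.

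Differences between the places in the complex were not tested in LKO replicate 1. All 6 ATPases of the regulatory particle and the 3 other base subunits among the members had their highest value there, with median deviations of 0.28 and 0.37. Of the 8 lid subunits among the members 7 did, with a median deviation of 0.37. In the alpha ring 7 of 8 did (median deviation 0.26), and of the beta subunits without an active site 3 of 4 (0.30). Of the constitutive catalytic subunits 1 of 3, *Psmb5*, was highest there. Their median deviation of 0.084 lay inside the range of the other LKO livers (0.0031 to 0.096) and of WT livers (−0.11 to 0.086). The chaperones of the regulatory particle had 2 of 3 highest there (median deviation 0.34) and those of the core 3 of 5 (0.20). None of the 6 activators and inhibitor genes had its highest value in LKO replicate 1 (median deviation 0.11, other LKO livers 0.066 to 0.14). Neither did any of the 3 immunoproteasome subunits (−0.16, other LKO livers −0.14 to 0.39). In the lists of genes around the proteasome, described below, LKO replicate 1 was highest for 3 of 7 subunits and cofactors outside the name pattern (median deviation 0.16, other LKO livers 0.018 to 0.20), 2 of 6 ubiquitin precursor and activating enzyme genes (0.12, other LKO livers −0.22 to 0.0076), 4 of 11 genes of p97 and shuttle factors (0.12, other LKO livers −0.14 to 0.041), 3 of 8 genes of the NFE2L1 route (0.15, other LKO livers −0.11 to 0.094) and 0 of 10 genes of interferon gamma response and class I antigen presentation (−0.060, other LKO livers −0.067 to 0.084). The highest WT liver had a median deviation of 0.077, 0.12, 0.11, 0.10 and 0.080 for these lists in that order. For the ubiquitin list it lay slightly above LKO replicate 1 (0.1233 and 0.1232), and for the p97 list it lay close below.

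LKO replicate 1 had 20722320 counted reads, more than any other liver except LKO replicate 5. Its share of reads on mitochondrial genes was 6.22%, within the LKO range of 6.19% to 6.73%, and its share on ribosomal protein genes was 0.480%, against 0.409% to 0.483% over LKO and 0.369% to 0.404% over WT livers. The mitochondrial share of WT livers was 5.84% to 6.15%, so for both shares every LKO liver lay above every WT liver. The summed hepatocyte markers of LKO replicate 1 were 96000 normalized CPM, most of it *Alb*, and 4 of the 8, *Cps1*, *Serpina1c*, *Cyp2e1* and *Ass1*, had their lowest value of the 12 livers there. *Ass1*, chosen after its values were seen, had 1493 normalized CPM in this liver and 2135 in the next lowest. Summed markers of Kupffer cells and macrophages (8 of 8 measured, *Clec4f* most abundant) were 101 to 132 in WT and 128 to 220.5 in LKO livers, and 162 in LKO replicate 1. Summed endothelial markers (8 of 8, *Stab2* most abundant) were 149.8 to 194 in WT and 162 to 200.4 in LKO livers, and summed stellate cell markers (8 of 8, *Dcn* most abundant) were 170.2 to 259 in WT and 199 to 296 in LKO livers, and LKO replicate 1 was the highest liver for both. B cell markers (8 of 8) summed to 16.8 to 24.6 in WT and 7.41 to 10.9 in LKO livers and rested on *Ighm*, since the defining markers *Cd79a*, *Ms4a1* and *Pax5* were near 0. T and NK cell markers were near 0 throughout, at 0.760 to 2.22 in WT and 1.07 to 2.15 in LKO livers for the 5 of 8 that passed, with *Lck* the most abundant and *Cd3d*, *Cd8a* and *Ncr1* below the filter. Dendritic cell markers (6 of 8, *Zbtb46* most abundant, *Ccr7* and *Cd209a* below the filter) summed to 10.0 to 13.4 in WT and 13.2 to 15.8 in LKO livers. LKO replicate 1 had 8.14, 1.07 and 14.3 for these immune lists in that order. The part of these values in the results was not tested, and in bulk tissue fewer cells of a type and less RNA per cell cannot be told apart.

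The marker lists were also compared between the genotypes. Over all genes tested, 11.7% had an unadjusted edgeR p under 0.05, and edgeR called 0.428%, limma voom 0.485% and DESeq2 1.95%. *Ighm*, the heavy chain of immunoglobulin M, had normalized CPM from 14.2 to 22.9 in WT livers (median 18.0) and from 4.38 to 6.32 in LKO livers (median 5.28). It fell in LKO livers without overlap, with a log2 fold change of −1.78 (95% interval −2.04 to −1.51, edgeR adjusted p = 4.06e-06), and was the marker called by edgeR. Of the 8 B cell markers the other 7 were above 0, edgeR counted 5 higher and 1 lower at an unadjusted p under 0.05, limma voom and DESeq2 called *Ighm* alone, and the list median was 0.75 (0.84 without LKO replicate 1). All 8 Kupffer cell and macrophage markers were above 0, with a median of 0.43 (0.41 without LKO replicate 1), and edgeR called 0 and counted 7 at an unadjusted p under 0.05, limma voom called 0 and DESeq2 called 3. Stellate cell markers had a median of 0.20 (0.11 without LKO replicate 1) and endothelial markers a median of 0.083 (0.054 without LKO replicate 1), with 0 called by edgeR or limma voom, 1 and 2 at an unadjusted edgeR p under 0.05, and 1 endothelial marker, *Lyve1*, called by DESeq2. Medians were −0.096 (−0.045 without LKO replicate 1) for hepatocytes, 0.19 (0.18 without LKO replicate 1) for T and NK cells and 0.12 (0.16 without LKO replicate 1) for dendritic cells, with 0 called by edgeR, limma voom or DESeq2 and 1, 0 and 1 at an unadjusted edgeR p under 0.05.

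**Figure D1:**
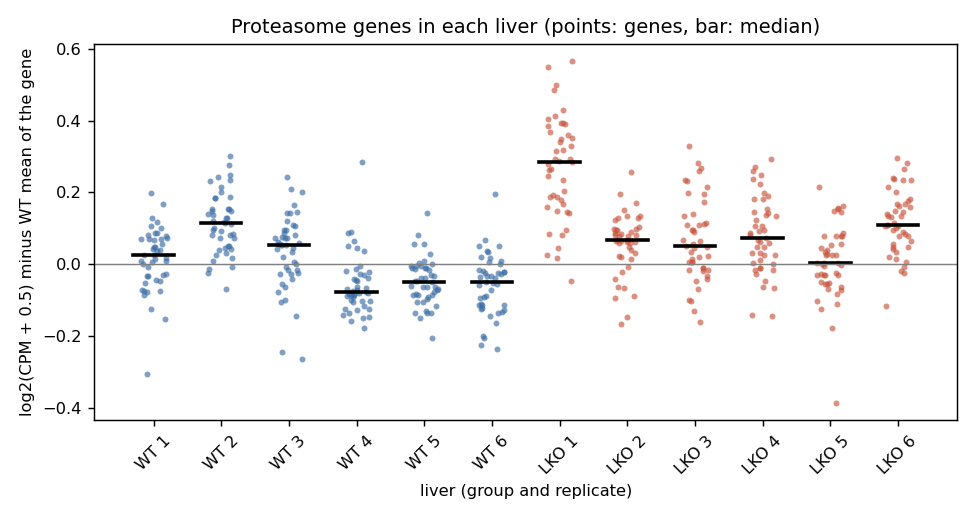
Deviation of each of the 45 members (points) from its WT mean, on the log2(CPM + 0.5) scale, in each of 6 WT (blue) and 6 LKO (red) livers, with the median as a bar. The median was 0.29 in LKO replicate 1 and at most 0.11 in every other liver.

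For most members the log2 fold change (LKO minus WT) was slightly above 0, with overlapping groups. Over all genes tested, edgeR and limma voom called no member and DESeq2 called *Psma7*. Summed over the 46 members, normalized CPM ranged from 2833 to 3227 in WT livers (median 2957) and from 2981 to 3628 in LKO livers (median 3107). The highest sum was that of LKO replicate 1 and the lowest that of WT replicate 4, and WT replicate 2, the highest WT liver, lay above every LKO liver except replicate 1. The log2 fold change was above 0 for 41 of the 46 members (89.1%), against 50.0% of all genes tested, and its median was 0.11, against 0.00016 over all genes tested. Without LKO replicate 1 the values were 39 of 46 (84.8%) and 0.074, and over all genes tested 49.7% and −0.0012. Members moved together within a liver, so these counts are not counts of separate observations. Of the 45 members without *Psma8*, 41 lay above their WT mean in WT replicate 2 and 7 in WT replicate 4. The LKO livers had from 24 to 44, with 41 in LKO replicate 6. Of all 50 members tested, 45 had their highest value in an LKO liver, compared with 47.9% of all genes tested, and 42 had their lowest in a WT liver, compared with 52.3%. The mitochondrial and ribosomal protein shares given above also separated the genotypes, and their part in these counts was not tested. Among the 11 livers without LKO replicate 1, the highest value was in an LKO liver for 28 of 50 members (56.0%), compared with 40.4% of all genes tested.

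By edgeR and limma voom no member passed the test, by DESeq2 *Psma7* did, and a p that misses the threshold does not show that values did not differ. By edgeR, 0 of 50 members had an adjusted p under 0.05, against 75 of all 17509 genes tested (0.428%, 48 higher and 27 lower in LKO), and the smallest adjusted p of a member was 0.147. Those higher in LKO were 0.274% and those lower 0.154% of all genes tested. At an unadjusted p under 0.05, edgeR counted 6 of 50 members (12.0%), against 11.7% of all genes tested, with 5 members higher (all genes 6.33%) and 1 lower (all genes 5.36%). Limma voom called 0 members (all genes 0.485%, with 0.314% higher and 0.171% lower) and counted 6 at an unadjusted p under 0.05 (all genes 12.0%), 5 of them higher (all genes 6.33%) and 1 lower (all genes 5.64%). DESeq2 called 1 member, *Psma7*, as higher (all genes 1.95%, with 1.02% higher and 0.937% lower) and counted 6 at an unadjusted p under 0.05 (all genes 11.6%), 5 of them higher (all genes 5.91%) and 1 lower (all genes 5.64%). The groups overlapped for all 50 members, so the count of members without overlap was 0, compared with 228 of all genes tested (1.30%, with 0.748% higher and 0.554% lower in LKO). That count was 4 without LKO replicate 5 (*Psma7*, *Psmb1*, *Psmb3* and *Psmc3*; 1.64% of all genes tested) and 2 without WT replicate 3 (*Psma7* and *Psme1*; 2.46%). It was 1 without WT replicate 2 (*Psmd4*; 1.91% of all genes tested) and 1 without LKO replicate 2 (*Psme1*; 2.04%), and *Psmb1* and *Psmc3* are named here after their values were seen. Without LKO replicate 1 edgeR called 0 members, and 5 of 50 (10.0%) had an unadjusted p under 0.05, against 11.9% of all genes tested. That count varied between settings, with 14 (28.0%) without WT replicate 2, against 11.6% of all genes tested, 12 (24.0%) without LKO replicate 5, against 10.3%, and 13 (26.0%) with upper-quartile scaling, against 11.8%. The number of genes called over the whole table was 38 without WT replicate 5 and 132 without WT replicate 3, and no member was among them. Members were measured with less spread than most genes, with a median SE of the log2 fold change of 0.074, against 0.15 over all genes tested. The 95% interval of the log2 fold change lay inside −0.5 to 0.5 for 48 of 50 members, compared with 51.0% of all genes tested, and *Psma8* and *Psmc3ip*, both with few reads, were the exceptions.

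**Figure D2:**
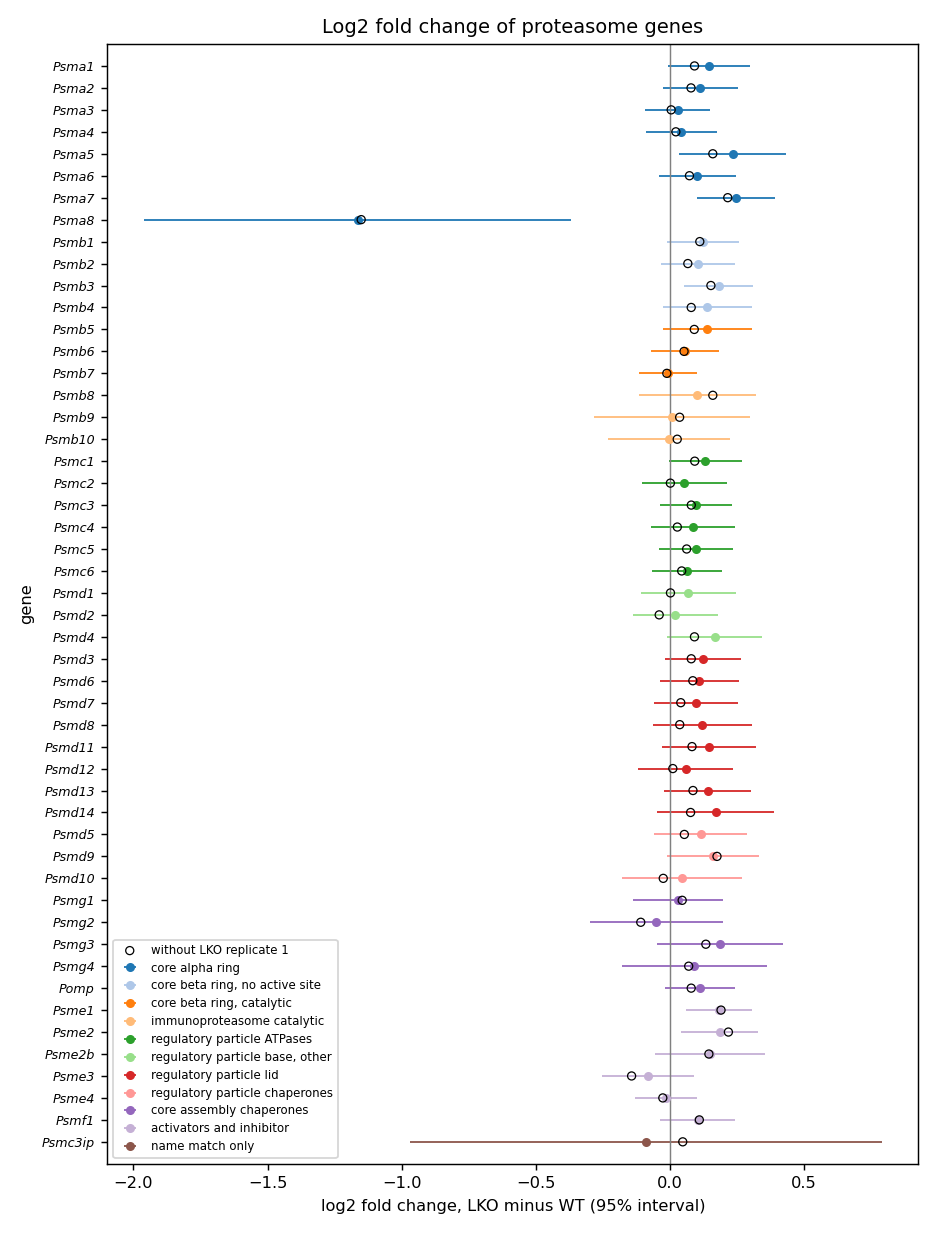
Log2 fold change (LKO minus WT) of the 50 members tested, with the 95% interval from edgeR as a bar, coloured by place in the complex, and open circles for the fit without LKO replicate 1. The interval held 0 for 44 members, lay above 0 for 5 and below 0 for *Psma8*.

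The alpha ring shapes the entrance of the core particle, and 7 of its 8 genes had a log2 fold change above 0, with a median of 0.11 (0.075 without LKO replicate 1). *Psma7* (ENSMUSG00000027566, chr2:180036374-180042433 on the minus strand of GRCm38), an alpha subunit found in all proteasomes of liver, had normalized CPM from 70.6 to 88.9 in WT livers (median 79.2) and from 87.7 to 104 in LKO livers (median 93.2). Every LKO liver except LKO replicate 5 lay above every WT liver, and LKO replicate 5 lay below WT replicate 3 alone. The log2 fold change of 0.25 (SE 0.068, 95% interval 0.099 to 0.39) was the largest among members, with an edgeR adjusted p of 0.147. It was 0.21 without LKO replicate 1 (edgeR adjusted p = 0.202), and DESeq2 gave an adjusted p of 0.0428, while limma voom gave 0.137. *Psma8*, the alpha subunit that takes the place of *Psma7* in germ cells, was close to undetected, with 2 to 17 reads per liver and normalized CPM from 0.318 to 1.00 in WT livers (median 0.700) and from 0.108 to 0.473 in LKO livers (median 0.255). All 6 LKO livers lay below the WT median and the groups overlapped. Its log2 fold change was −1.16 (SE 0.37, 95% interval −1.96 to −0.37), with an edgeR adjusted p of 0.218. *Psma5*, chosen after its values were seen because its unadjusted p was under 0.05, had normalized CPM from 23.9 to 31.2 in WT livers (median 25.3) and from 27.3 to 38.7 in LKO livers (median 29.4). LKO replicate 1 was the highest liver, and the log2 fold change was 0.23 (95% interval 0.032 to 0.43) with it and 0.16 without it (edgeR adjusted p = 0.338 and 0.458). The other alpha subunits, *Psma1*, *Psma2*, *Psma3*, *Psma4* and *Psma6*, had log2 fold changes from 0.028 for *Psma3* to 0.15 for *Psma1*, and all 5 had their highest value in LKO replicate 1. Without that liver the log2 fold changes ran from 0.0042 for *Psma3* to 0.091 for *Psma1*.

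In the beta rings, the 4 subunits without an active site were all above 0, with a median log2 fold change of 0.13 (0.095 without LKO replicate 1). *Psmb3*, a structural subunit of the ring, had normalized CPM from 32.6 to 37.2 in WT livers (median 34.5) and from 35.8 to 43.4 in LKO livers (median 39.5). In 5 of 6 LKO livers it lay above every WT liver, and LKO replicate 5 fell inside the WT range. For *Psmb3* the log2 fold change was 0.18 (SE 0.061, 95% interval 0.051 to 0.31), with an edgeR adjusted p of 0.240, and it was 0.15 without LKO replicate 1. *Psmb2*, with the smallest value of these subunits, had normalized CPM from 50.7 to 56.97 in WT livers (median 53.6) and from 51.5 to 65.6 in LKO livers (median 57.9). Its groups overlapped, with a log2 fold change of 0.10 (95% interval −0.033 to 0.24, edgeR adjusted p = 0.563), and 0.066 without LKO replicate 1. *Psmb1* and *Psmb4* lay between them, at 0.12 and 0.14, and at 0.11 and 0.079 without LKO replicate 1.

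The constitutive catalytic subunits, which carry the proteolytic sites, had a median log2 fold change of 0.057 (0.052 without LKO replicate 1). *Psmb5*, with the chymotrypsin-like site, had normalized CPM from 20.5 to 25.4 in WT livers (median 21.7) and from 22.7 to 28.8 in LKO livers (median 24.4). All 6 LKO livers lay above the WT median, and LKO replicate 1 alone lay above every WT liver. Its log2 fold change was 0.14 (95% interval −0.027 to 0.31, edgeR adjusted p = 0.517), and 0.090 without LKO replicate 1. *Psmb6*, with the caspase-like site, had normalized CPM from 68.7 to 79.5 in WT livers (median 74.9) and from 69.2 to 79.6 in LKO livers (median 78.8). WT livers were spread over the whole range, 5 LKO livers sat together at its upper end and LKO replicate 5 at its lower end, for a log2 fold change of 0.057 (95% interval −0.071 to 0.18, edgeR adjusted p = 0.764). *Psmb7*, with the trypsin-like site, had normalized CPM from 53.9 to 59.4 in WT livers (median 57.4) and from 54.0 to 60.5 in LKO livers (median 56.9). The groups covered nearly the same range, with 3 of 6 LKO livers above the WT median. The log2 fold change of *Psmb7* was −0.0063 (95% interval −0.11 to 0.10, edgeR adjusted p = 0.978), and its sign turned with upper-quartile scaling, to 0.010.

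The immunoproteasome subunits, taken apart from the rest, had a median log2 fold change of 0.0074 (0.036 without LKO replicate 1). Their summed normalized CPM ranged from 39.4 to 50.1 in WT and from 39.5 to 56.4 in LKO livers. LKO replicate 1 was the lowest LKO liver for this sum, and LKO replicate 4 was the highest of all livers. *Psmb8*, which replaces *Psmb5*, had normalized CPM from 13.2 to 16.4 in WT livers (median 15.6) and from 12.9 to 19.8 in LKO livers (median 15.8). LKO livers included both the highest (replicate 4) and the lowest (replicate 1) of all 12 values, and the log2 fold change was 0.10 (95% interval −0.12 to 0.32, edgeR adjusted p = 0.752). For *Psmb8* it was 0.16 without LKO replicate 1 and 0.036 without LKO replicate 4. *Psmb9*, which replaces *Psmb6*, had normalized CPM from 8.75 to 14.3 in WT livers (median 12.5) and from 10.1 to 15.8 in LKO livers (median 11.2). Its groups overlapped widely, with a log2 fold change of 0.0074 (95% interval −0.29 to 0.30, edgeR adjusted p = 0.993) that limma voom placed just below 0. *Psmb10*, which replaces *Psmb7*, had normalized CPM from 14.8 to 21.6 in WT livers (median 17.5) and from 14.7 to 20.8 in LKO livers (median 17.4). Here too the groups overlapped, and the log2 fold change was −0.0056 (95% interval −0.23 to 0.22, edgeR adjusted p = 0.993), with the opposite sign under upper-quartile scaling (0.011). *Psmb8* (chr17:34197721-34201454) and *Psmb9* (chr17:34181987-34187764) lie close together on chromosome 17 of GRCm38, with *Tap1* (chr17:34187553-34197225) between them. *Psmb9* shares 212 nt of exons with *Tap1* on the opposite strand, so reads of that stretch may be shared between *Psmb9* and *Tap1*.

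Each immunoproteasome subunit was also set against the subunit it replaces in the same liver, as a percentage of normalized CPM per kb of the longest coding transcript. *Psmb8* stood at a level from 29.8% to 42.7% in WT livers (median 38.4%) and from 24.8% to 43.8% in LKO livers (median 37.3%) of that of *Psmb5*. For *Psmb9* against *Psmb6* the percentage ranged from 7.33% to 11.6% in WT livers (median 9.67%) and from 7.57% to 11.9% in LKO livers (median 8.78%). For *Psmb10* against *Psmb7* it ranged from 22.0% to 33.1% in WT livers (median 27.0%) and from 22.6% to 32.9% in LKO livers (median 26.4%). The groups overlapped in all 3 pairs, and in every liver the constitutive subunit had the higher level per length. These percentages depend on the length used, and per kb of all annotated exons of the gene the WT medians were 18.5%, 8.38% and 61.2% in the order of the pairs, which changes the order of the pairs. LKO replicate 1, in which *Psmb5* was highest and *Psmb8* lowest of the 12 livers, had the lowest percentage of the first pair.

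All 17 subunits of the regulatory particle that match the name pattern had a log2 fold change above 0, with a median of 0.097, and 16 of 17 were above 0 without LKO replicate 1, with a median of 0.062. Their summed normalized CPM ranged from 1406 to 1666 in WT (median 1499.7) and from 1492 to 1904 in LKO livers (median 1565), and the highest LKO value, that of replicate 1, was followed by 1614. The 6 ATPases that unfold the substrate, *Psmc1* to *Psmc6*, had a median of 0.091 (0.053 without LKO replicate 1). *Psmc1*, an ATPase whose tail helps to open the entrance of the core, had normalized CPM from 85.7 to 100 in WT livers (median 96.9) and from 94.8 to 119 in LKO livers (median 103). It lay above every WT liver in 4 LKO livers, with a log2 fold change of 0.13 (95% interval −0.0054 to 0.27, edgeR adjusted p = 0.449). *Psmc2*, at the low end of the ATPases, had normalized CPM from 75.5 to 97.3 in WT livers (median 83.0) and from 80.1 to 103 in LKO livers (median 85.1). Outside LKO replicate 1 its LKO livers lay inside the WT range, and the log2 fold change of 0.053 (95% interval −0.11 to 0.21, edgeR adjusted p = 0.838) was 0.0012 without that liver.

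The other subunits of the base among the members, which hold ubiquitin receptors and scaffolds, had a median log2 fold change of 0.068, and 0.0016 without LKO replicate 1. *Psmd4*, a ubiquitin receptor, had normalized CPM from 87.6 to 107 in WT livers (median 90.2) and from 96.3 to 131 in LKO livers (median 97.9). LKO replicate 1 lay far above the rest, WT replicate 2 was the highest WT liver, and every LKO liver exceeded all WT livers but that one. For *Psmd4* the log2 fold change was 0.17 (SE 0.083, 95% interval −0.0097 to 0.34, edgeR adjusted p = 0.456) and 0.091 without LKO replicate 1. *Psmd2*, a large scaffold that docks shuttle factors and deubiquitinases, had normalized CPM from 143 to 170.3 in WT livers (median 149.8) and from 143 to 188 in LKO livers (median 152). Its small difference rested on LKO replicate 1, since the log2 fold change was 0.020 (95% interval −0.14 to 0.18, edgeR adjusted p = 0.952) with that liver and −0.040 without it. *Psmd1*, the other scaffold, went from 0.068 to 0.0016 when it was left out.

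The lid removes ubiquitin chains from substrates, and its 8 subunits that match the name pattern had a median log2 fold change of 0.12 (0.078 without LKO replicate 1), with all 8 above 0 in both fits. *Psmd14*, the deubiquitinase of the lid, had normalized CPM from 46.2 to 61.7 in WT livers (median 49.4) and from 49.7 to 75.4 in LKO livers (median 55.0). All 6 LKO livers lay above the WT median, yet LKO replicate 1 alone exceeded the highest WT liver, replicate 2. Its log2 fold change of 0.17 (SE 0.10, 95% interval −0.049 to 0.39, edgeR adjusted p = 0.552) was 0.077 without LKO replicate 1. *Psmd12*, a scaffold subunit of the lid, had normalized CPM from 69.2 to 94.0 in WT livers (median 81.0) and from 77.7 to 97.7 in LKO livers (median 81.6). Its medians were close, and the log2 fold change was 0.059 (95% interval −0.12 to 0.24, edgeR adjusted p = 0.840), and 0.010 without LKO replicate 1. *Psmd3*, *Psmd6*, *Psmd7*, *Psmd8*, *Psmd11* and *Psmd13* had log2 fold changes from 0.096 to 0.14, and from 0.036 to 0.085 without LKO replicate 1. Of these 8, *Psmd6* was the subunit not highest in LKO replicate 1, and had its highest value in LKO replicate 6.

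**Figure D3:**
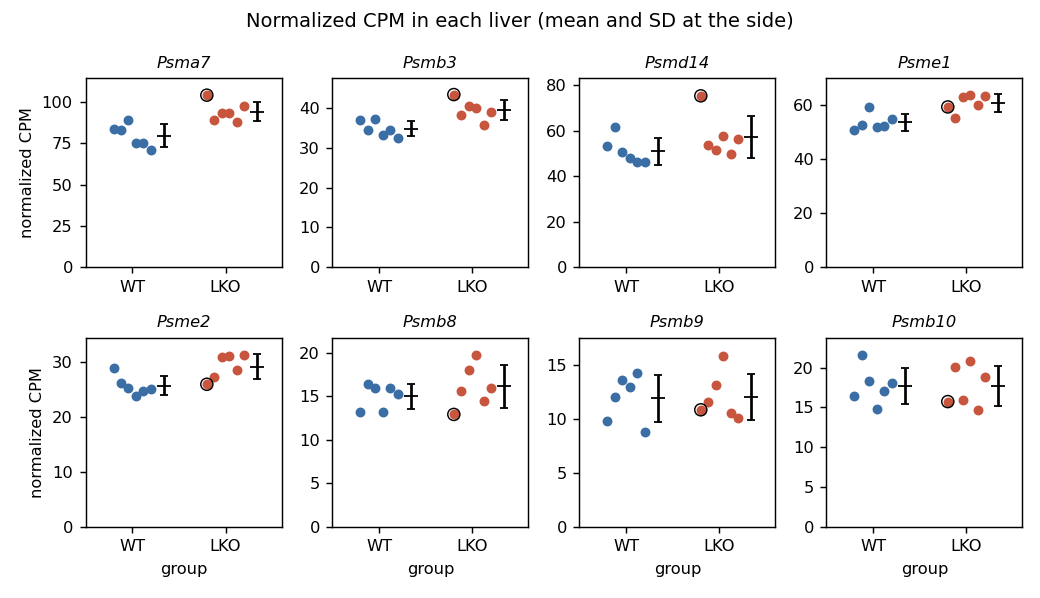
Normalized CPM of 8 members in each WT (blue) and LKO (red) liver, with LKO replicate 1 ringed and the mean and SD of each group (n = 6) at the side. *Psma7* had means of 79.4 and 94.1, *Psmd14* was highest in LKO replicate 1, and the groups overlapped for all 8 genes.

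Among the assembly genes, the 3 chaperones that build the base of the regulatory particle had a median log2 fold change of 0.11 (0.053 without LKO replicate 1). *Psmd9*, which escorts ATPases into the base, had normalized CPM from 37.9 to 55.7 in WT livers (median 47.1) and from 49.6 to 57.2 in LKO livers (median 52.6). Every LKO liver lay above the WT median and the WT livers spread more widely, with a log2 fold change of 0.16 (95% interval −0.010 to 0.33, edgeR adjusted p = 0.459) and 0.17 without LKO replicate 1. *Psmd10*, the chaperone also known as gankyrin, had normalized CPM from 7.34 to 10.1 in WT livers (median 8.50) and from 7.69 to 10.9 in LKO livers (median 8.59). The groups overlapped, and its log2 fold change of 0.045 (95% interval −0.18 to 0.27, edgeR adjusted p = 0.912) was −0.025 without LKO replicate 1. *Psmd5*, the remaining base chaperone, had 0.11 with and 0.053 without that liver.

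The 5 genes that assemble the core particle had a median log2 fold change of 0.090, with 0.069 without LKO replicate 1 and, over all leave-outs, between 0.042 without WT replicate 6 and 0.13 without WT replicate 2. *Pomp*, the maturation factor that guides beta subunits onto the alpha ring, had normalized CPM from 88.8 to 99.7 in WT livers (median 90.7) and from 88.5 to 110.4 in LKO livers (median 98.7). LKO livers held both the highest value (replicate 1) and the lowest (replicate 5), and the log2 fold change was 0.11 (SE 0.061, 95% interval −0.019 to 0.24, edgeR adjusted p = 0.507), with 0.079 without LKO replicate 1. *Psmg3*, a chaperone of early alpha ring assembly, had normalized CPM from 6.24 to 9.15 in WT livers (median 7.41) and from 7.14 to 10.0 in LKO livers (median 8.59). It had the largest value of the core chaperones and a wide interval, with a log2 fold change of 0.19 (95% interval −0.049 to 0.42, edgeR adjusted p = 0.542). *Psmg2*, which acts with *Psmg1* on the alpha ring, had normalized CPM from 7.87 to 11.0 in WT livers (median 9.57) and from 7.18 to 11.1 in LKO livers (median 9.16). Its log2 fold change was −0.051 (95% interval −0.30 to 0.20, edgeR adjusted p = 0.912), and −0.11 without LKO replicate 1. Without LKO replicate 5 it was 0.016, so its sign turned. *Psmg1* and *Psmg4* had values of 0.029 and 0.090.

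The alternative activators bind the ends of the core in place of the regulatory particle, and with the inhibitor *Psmf1* they had a median log2 fold change of 0.13 (0.13 without LKO replicate 1). *Psme1* (ENSMUSG00000022216, chr14:55578123-55581529 on the plus strand of GRCm38), a subunit of the cytosolic activator that interferon gamma induces, had normalized CPM from 50.7 to 59.1 in WT livers (median 52.3) and from 55.3 to 63.6 in LKO livers (median 61.4). In 5 of 6 LKO livers it lay above every WT liver, and LKO replicate 2 lay below WT replicate 3 alone. With these values the log2 fold change was 0.18 (SE 0.058, 95% interval 0.059 to 0.31), with an edgeR adjusted p of 0.215, and it was 0.19 without LKO replicate 1. *Psme2* (chr14:55587441-55591113), its partner in the same ring and its close neighbour on chromosome 14, had normalized CPM from 23.9 to 28.9 in WT livers (median 25.2) and from 26.0 to 31.3 in LKO livers (median 29.8). All 6 LKO livers lay above the WT median, WT replicate 1 was the highest WT liver, and LKO replicate 1 was the lowest LKO liver. For *Psme2* the log2 fold change was 0.18 (SE 0.068, 95% interval 0.040 to 0.33, edgeR adjusted p = 0.288), and 0.22 without LKO replicate 1 (adjusted p = 0.195). *Psme2b*, a near copy of *Psme2* on chromosome 11, had normalized CPM from 7.75 to 9.91 in WT livers (median 8.28) and from 8.14 to 10.3 in LKO livers (median 9.92). With overlapping groups, it had a log2 fold change of 0.15 (95% interval −0.055 to 0.35, edgeR adjusted p = 0.579).

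*Psme3*, the activator of the nucleus, had normalized CPM from 61.2 to 80.1 in WT livers (median 67.1) and from 59.7 to 77.4 in LKO livers (median 61.8). In contrast to most members, 5 of 6 LKO livers lay below the WT median, and LKO replicate 1 stood above the other LKO livers. Its log2 fold change was −0.083 (SE 0.081, 95% interval −0.26 to 0.090, edgeR adjusted p = 0.743), and −0.14 without LKO replicate 1 (edgeR adjusted p = 0.440). *Psme4*, a large activator that also acts on histones, had normalized CPM from 151 to 168 in WT livers (median 164) and from 149 to 171 in LKO livers (median 161). The ranges of the groups nearly coincided, with a log2 fold change of −0.015 (95% interval −0.13 to 0.10, edgeR adjusted p = 0.949) that was 0.0014 under upper-quartile scaling. *Psmf1*, which binds and inhibits the core particle in vitro, had normalized CPM from 29.4 to 36.2 in WT livers (median 32.8) and from 32.9 to 39.3 in LKO livers (median 34.5). Each LKO liver lay above the WT median, for a log2 fold change of 0.10 (95% interval −0.037 to 0.24, edgeR adjusted p = 0.576). *Psmc3ip*, matched by name alone, had 1 to 9 reads per liver and normalized CPM from 0.0588 to 0.553 in WT livers (median 0.376) and from 0.172 to 0.487 in LKO livers (median 0.403). At this depth its log2 fold change of −0.090 had a 95% interval of −0.97 to 0.79 (edgeR adjusted p = 0.962).

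Levels were compared between members as normalized CPM per kb of the longest coding transcript, a measure that depends on that choice of transcript and is given as mean ± SD over 6 WT livers. The highest levels per kb were those of *Psmb6* (93.3 ± 5.86), *Psmb4* (91.9 ± 6.40) and *Psma6* (85.8 ± 7.13), and on this measure these 3 did not differ beyond their spread. Per kb of all annotated exons of the gene their WT means were 39.8, 55.7 and 72.4 in that order, so their ranking depends on the length used. Among the 14 constitutive subunits of the core, which the particle holds in equal number, the level per kb of the longest coding transcript ran down to 24.9 ± 2.29 for *Psmb5*, 21.3 ± 2.25 for *Psma5*, 19.8 ± 1.25 for *Psma2* and 17.4 ± 0.868 for *Psma3*, a range of 5.35-fold. The transcripts used for *Psma2* and *Psma3* were long, at 2911 and 2846 nt, against 899 nt for *Psmb5* and 1239 nt for *Psma5*. Before division by length, the WT means of *Psma2* and *Psma3* were 57.8 and 49.7 normalized CPM, above *Psmb5* (22.4) and *Psma5* (26.4). The ATPases lay within 1.43-fold of each other, from 41.9 ± 2.81 for *Psmc6* to 59.9 ± 3.34 for *Psmc1*. Lid subunits ran from 26.7 ± 2.11 for *Psmd13* to 51.0 ± 3.10 for *Psmd8* per kb. Of the assembly genes, *Pomp* had the highest level per kb, at 23.9 ± 1.06, and the other core chaperones lay between 6.17 and 14.7, below every constitutive core subunit. The immunoproteasome subunits had 13.5 ± 1.74 for *Psmb10*, 9.22 ± 0.881 for *Psmb8* and 8.81 ± 1.62 for *Psmb9*, and the latter pair did not differ beyond their spread. Of the activators, *Psme1* (48.1 ± 2.73) stood above *Psme2* (26.7 ± 1.79), *Psme3* (25.5 ± 2.59) and *Psme4* (25.1 ± 0.958) in level per kb. *Psma8* had 0.388 ± 0.152 per kb.

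For some members the counted reads may be split with near-identical copies, and their values are uncertain to that extent. *Psma3* has a pseudogene, *Gm13835*, that matches it at 100% over 665 nt and was counted with 4142 reads over all livers, against 10538 for *Psma3*. *Gm13835* had normalized CPM from 17.2 to 22.0 in WT livers (median 19.9) and from 17.8 to 23.0 in LKO livers (median 18.9), with overlapping groups and a log2 fold change of 0.011 (95% interval −0.17 to 0.19). *Psme2* and *Psme2b* match at 99.4% over 794 nt and had 5769 and 1901 reads. Copies with a sizeable number of reads were also found for *Psma4* (*Gm6542*), *Psma5* (*Gm12989* and *Gm8394*), *Psmb3* (*Gm4950*), *Psmb5* (*Gm3375*), *Psmc1* (*Gm9575*), *Psmd2* (*Gm5422*) and *Psmd11* (*A730017L22Rik*). With the reads of the copies added to each member, an alternative chosen after seeing the data, edgeR called 0 members, and 8 of 50 (16.0%) had an unadjusted p under 0.05, against 11.7% of all genes tested. The log2 fold change was then 0.20 for *Psmb3*, 0.22 for *Psma5* and 0.18 for *Psme2*. *Psme2* and *Psme2b* are copies of each other, so each then held the summed reads of both. The same counts were thus tested under both names, and both are among the 50. Exons of *Psmd9* overlap the noncoding gene *Gm26745* on the opposite strand over 25.5% of their length, those of *Psmb8* overlap *Gm20496* over 14.7%, and those of *Psmb7* overlap *Nek6* over 11.8%. Without a stated strand setting of the counting, reads of these stretches cannot be told apart.

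Genes around the proteasome were taken from lists of their known roles. Of 7 proteasome subunits and cofactors outside the name pattern, 4 had a log2 fold change above 0, with a median of 0.064 (5 of 7 and 0.051 without LKO replicate 1), and edgeR, limma voom and DESeq2 called 0, with 3 at an unadjusted edgeR p under 0.05, against 11.7% of all genes tested. *Adrm1*, a ubiquitin receptor of the regulatory particle, had normalized CPM from 29.4 to 39.9 in WT livers (median 31.4) and from 32.9 to 49.3 in LKO livers (median 36.6). LKO replicate 1 and WT replicate 2 were the highest of their groups, and the log2 fold change was 0.24 (95% interval 0.023 to 0.45, edgeR adjusted p = 0.367), and 0.15 without LKO replicate 1. *Sem1*, a small lid subunit chosen after its values were seen, had normalized CPM from 25.4 to 31.6 in WT livers (median 30.2) and from 32.0 to 36.4 in LKO livers (median 35.4). Here the groups did not overlap, as for 1.30% of all genes tested, and the log2 fold change was 0.23 (95% interval 0.087 to 0.36, edgeR adjusted p = 0.164). The third gene at an unadjusted p under 0.05, *Ube3c*, was named after its values were seen and went the other way. Its log2 fold change was −0.14 (95% interval −0.27 to −0.022, edgeR adjusted p = 0.33). Of 6 ubiquitin precursor and activating enzyme genes, 3 were above 0 (median −0.031, or 2 of 6 and −0.066 without LKO replicate 1), and of 11 genes of the p97 segregase and of shuttle factors 4 were (median −0.021, or 3 of 11 and −0.073 without LKO replicate 1). In either list 0 were called by edgeR, limma voom or DESeq2, with 1 of 6 and 2 of 11 at an unadjusted edgeR p under 0.05, beside the same 11.7%. *Ddi2* is in the list of p97 and shuttle factors and in that of the NFE2L1 route below, and is counted in both. *Vcp*, which encodes the segregase that hands membrane proteins to the proteasome, had normalized CPM from 92.7 to 107 in WT livers (median 99.2) and from 89.4 to 119 in LKO livers (median 92.2). LKO replicate 1 was the highest of all livers and the other 5 LKO livers lay below the WT median, for a log2 fold change of −0.049 (95% interval −0.21 to 0.11, edgeR adjusted p = 0.856), or −0.12 without LKO replicate 1.

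On the route that adjusts proteasome transcription, 4 of 8 genes were above 0, with a median log2 fold change of 0.0068. Without LKO replicate 1 these were 3 of 8 and −0.0092, so the sign of the median turned. By edgeR, limma voom or DESeq2 0 were called, and 1 of 8, *Ddi2*, had an unadjusted edgeR p under 0.05, against 11.7% of all genes tested. *Nfe2l1*, the transcription factor itself, had normalized CPM from 122 to 161 in WT livers (median 150.3) and from 126 to 157 in LKO livers (median 143). Its groups overlapped, with a log2 fold change of −0.035 (95% interval −0.21 to 0.14, edgeR adjusted p = 0.912), between −0.081 without WT replicate 4 and −0.0021 without LKO replicate 3. *Ddi2*, the protease that activates NFE2L1 and a gene named here after its values were seen, had normalized CPM from 289 to 374 in WT livers (median 328) and from 258 to 324 in LKO livers (median 273). All 6 LKO livers lay below the WT median, and the log2 fold change was −0.25 (95% interval −0.42 to −0.081, edgeR adjusted p = 0.215). Of 10 genes of interferon gamma response and class I antigen presentation, which use the products of the immunoproteasome, 4 were above 0, with a median of −0.043 (4 of 10 and −0.023 without LKO replicate 1), 0 called by edgeR, limma voom or DESeq2 and 1 at an unadjusted edgeR p under 0.05, against the same share of all genes tested. *Tap1*, a subunit of the peptide transporter beside *Psmb9*, had normalized CPM from 20.4 to 35.3 in WT livers (median 31.0) and from 22.8 to 31.6 in LKO livers (median 26.2). The groups overlapped, for a log2 fold change of −0.16 (95% interval −0.42 to 0.11, edgeR adjusted p = 0.672). The gene of this list at an unadjusted p under 0.05 was *Tapbp*, named here after its values were seen. Its log2 fold change was 0.17 (95% interval 0.057 to 0.29, edgeR adjusted p = 0.211).

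Promoters of members were searched for short motifs, in the 250 bases before the start of each gene from RefSeq (GRCm38.p6), on both strands. *Psma6*, *Psmc2* and *Psme2* had windows at different starts, and a member was counted if any of its windows held the motif. *Psma6* has the ETS core only in its window at chr12:55398575-55398824, downstream of its other window. Of the 50 members other than *Psmc3ip*, 42 matched a promoter entry, and *Psma8*, *Psmb1*, *Psmb2*, *Psmb7*, *Psmc3*, *Psmd3*, *Psmd7* and *Psmg2* had none. The core of the ETS motif, CGGAAG, was in 20 of 42 (47.6%), against 15.3% of the 27025 promoters of all genes. The CCAAT box, CCAAT, was in 14 of 42 (33.3%), against 37.5% of the 27025 promoters of all genes. The TATA box, TATAAA, was in 4 of 42 (9.52%), against 14.3% of the 27025 promoters of all genes. Windows can hold annotated exons, as those of 31 of 42 members did, and those of *Psma4*, *Psmb8*, *Psmb9*, *Psmb11*, *Psmd13* and *Psme2b* lay wholly in them. The 20 with the ETS core include *Psma4* and *Psmd13*, and *Psmb11*, which had 0 reads. Of these 20, 10 had a match that lay outside annotated exons together with up to 20 bases on each side. A match describes the letters of the window and is not evidence of a bound factor. As examples chosen after their values were seen, the windows of *Psmd14* (chr2:61711444-61711693, plus strand), *Psmd2* (chr16:20651402-20651651, plus strand) and *Psmd4* (chr3:95042615-95042864, minus strand), which have the ETS core and hold no annotated exon, are printed 5′ to 3′ along the gene with the motif, or its reverse complement CTTCCG, in capitals.
Psmd14: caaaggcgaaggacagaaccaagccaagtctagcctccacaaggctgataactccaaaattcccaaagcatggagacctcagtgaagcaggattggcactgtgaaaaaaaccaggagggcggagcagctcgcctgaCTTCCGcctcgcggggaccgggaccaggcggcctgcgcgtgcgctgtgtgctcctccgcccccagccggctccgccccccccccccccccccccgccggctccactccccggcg
Psmd2: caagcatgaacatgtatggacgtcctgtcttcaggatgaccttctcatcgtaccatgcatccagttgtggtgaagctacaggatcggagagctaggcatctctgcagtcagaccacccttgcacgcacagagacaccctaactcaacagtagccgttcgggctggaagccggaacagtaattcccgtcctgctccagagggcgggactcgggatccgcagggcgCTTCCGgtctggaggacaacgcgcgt
Psmd4: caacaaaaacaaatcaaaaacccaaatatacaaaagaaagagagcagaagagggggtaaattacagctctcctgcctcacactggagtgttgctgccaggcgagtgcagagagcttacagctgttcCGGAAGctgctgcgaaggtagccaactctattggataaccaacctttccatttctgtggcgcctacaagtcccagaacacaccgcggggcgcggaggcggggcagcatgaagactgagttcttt
The log2 fold changes of these genes were 0.17, 0.020 and 0.17.

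NFE2L1 binds antioxidant response elements, whose core was searched as TGACNNNGC. It was in 5 of 42 (11.9%), against 11.5% of the 27025 promoters of all genes, namely *Psmb5*, *Psmb6*, *Psmc6*, *Psmd9* and *Psmd12*, and the window of *Psmb5*, at 47 bases before the start, reaches into an annotated exon. For the interferon motifs, the gamma-activated site TTCNNNGAA was in 2 of 42 (4.76%), against 8.13% of the 27025 promoters of all genes, namely *Psmb8*, where it lies wholly in an annotated exon, and *Psmg1*, and the core of the interferon-stimulated response element, GAAANNGAA, was in 3 of 42 (7.14%), against 8.18% of the 27025 promoters of all genes, namely *Psmb3*, *Psmd4* and *Psmd9*. To show how the antioxidant response element core is placed, up to 20 bases on each side are printed for *Psmb6* (chr11:70525328-70525356, plus strand), *Psmc6* (chr14:45329577-45329625, plus strand), *Psmd9* (chr5:123228139-123228187, plus strand) and *Psmd12* (chr11:107479278-107479309, plus strand), 5′ to 3′ along the gene, with the match, which for *Psmc6* and *Psmd12* is the reverse complement, in capitals.
Psmb6: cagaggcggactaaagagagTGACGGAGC
Psmc6: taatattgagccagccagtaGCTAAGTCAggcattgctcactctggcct
Psmd9: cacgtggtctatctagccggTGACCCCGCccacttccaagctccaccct
Psmd12: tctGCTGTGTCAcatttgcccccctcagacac
These matches start 9, 227, 31 and 247 bases before the RefSeq start in that order, outside annotated exons, and the log2 fold changes of the genes were 0.057, 0.063, 0.16 and 0.059. Starts in GENCODE M21 can differ, and *Psmd9* starts there at chr5:123169413, so its match lies within the span of that gene.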

How the data were processed

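Counts of liver RNA-seq reads were used for 12 mice, 6 of each genotype by the sample labels, with 1 library each. The authors prepared libraries with a KAPA mRNA HyperPrep kit and, by the submitters' processing notes and the methods, used FastQC 0.11.15, Picard, Trimmomatic 0.36, HISAT2 2.1.0 (GRCm38.p6) and HTSeq 0.6.1 and deposited raw read counts per Ensembl gene. The strand setting and overlap mode of the counting were not stated. Gene names, positions and lengths came from GENCODE M21, which held 54165 of the 54232 gene identifiers. Members and gene lists were chosen with earlier results of these data known. 

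Genes exceeding 2 reads in no fewer than 6 livers entered a quasi-likelihood F test in edgeR 4.0.16 (R 4.3.3) after TMM scaling, with genotype as the only term. P-values were adjusted after Benjamini and Hochberg across every tested gene, and a gene was called at an adjusted p under 0.05. Intervals are 95% intervals from the same fit. Deviations of members in each liver used log2(CPM + 0.5). The correlations of same-numbered livers used log2 CPM with a prior count of 0.5. The fit was tested on simulated data. Full values are given for members past the threshold, the catalytic subunits, the activators and inhibitor, *Pomp*, the highest and lowest log2 fold change of each subcomplex, and *Nfe2l1*, *Vcp*, *Adrm1* and *Tap1*. Values of some other listed genes are not reported here. *Psma5*, *Sem1*, *Ddi2* and the other genes so marked were added after their values were seen. Marker lists were for hepatocytes, Kupffer cells and macrophages, endothelial, stellate, B, T and NK, and dendritic cells. Near copies were transcripts of other genes matching a member at 95% or more over at least 300 nt. Alternatives were RLE and upper-quartile scaling, library size without the 20 most abundant genes, no filter, at least 10 reads in every liver, filterByExpr, limma voom (3.58.1), DESeq2 (1.42.0) without independent filtering, the replicate number as a block, each liver left out, and the reads of near copies added. Protein, lipid and human data were not analysed here.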

Additional observations from a re-analysis of the deposited data

Results flagged for a closer look

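In each group of 6 livers, the gap between the highest or the lowest liver and its nearest neighbour was divided by the range of the group, and a large share of the range marked a liver as far from the others. Of 142 groups looked at, 22 (15.5%) held such a liver, where chance marks about 1 in 20, and groups of different genes share the same livers. In 14 of the 22 the liver was LKO replicate 1. Among LKO livers this share, the gap over the range, was 0.764 for *Psmd2*, 0.755 for *Psmd4*, 0.746 for *Psmd11*, 0.730 for *Psmd8*, 0.690 for *Psmd14*, 0.665 for *Psmd12*, 0.627 for *Psmd7*, 0.715 for *Psmc2*, 0.636 for *Psmb5* and 0.810 for *Psme3*, each with replicate 1 highest. For *Psmd8*, for example, replicate 1 had 141 normalized CPM and the next LKO liver 108, and for *Psmd2* 188 and 154. Replicate 1 was also highest by 0.635 for *Adrm1* and 0.751 for *Vcp*, by 0.626 for the normalized CPM summed over the 46 members and by 0.703 for that summed over the regulatory particle.

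LKO replicate 5 was lowest with a gap over range of 0.918 for *Psmb6* and 0.718 for *Psmc3*. WT replicate 2 was the highest WT liver with 0.676 for *Psmd4*, 0.665 for *Pomp* and 0.705 for *Adrm1*, and the lowest with 0.663 for the summed dendritic cell markers. WT replicate 3 was lowest with 0.658 for *Psmd5* and 0.639 for *Psme4*.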

How the results depend on the processing

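The median log2 fold change of the 46 members was 0.11 as reported and 0.10 to 0.12 in 10 other settings of scaling, filter, test, design and near copies, and 0.07 (without LKO replicate 1) to 0.13 (without WT replicate 2) with each liver left out in turn. The number of genes called over the whole table, 75 by edgeR, was 114 with no filter on low counts, which adds genes to the test, and 342 with DESeq2, for which the cause was not tested, and 38 to 132 with each liver left out. Members called higher in LKO were 0 by edgeR in every setting tried, 0 by limma voom and 1 with DESeq2, *Psma7* (log2 fold change 0.24), for which the cause was not tested, and members called lower were 0 in all of these, with 5 to 14 members at an unadjusted p under 0.05 and 8.69% to 13.5% of all genes tested, and the 14 of 50 (28.0%) without WT replicate 2 stood beside 11.6% of all genes tested. Members without overlap were 0 under the other scalings and 0 to 4 of 50 with a liver left out, beside 1.53% to 2.46% of all genes tested with a liver left out. With a liver left out the log2 fold change ranged from 0.15 to 0.30 for *Adrm1*, −0.081 to −0.0021 for *Nfe2l1*, 0.066 to 0.14 for *Psmb2*, 0.090 to 0.18 for *Psmb5*, 0.035 to 0.088 for *Psmb6*, 0.036 to 0.16 for *Psmb8*, 0.0012 to 0.098 for *Psmc2*, 0.010 to 0.11 for *Psmd12*, 0.077 to 0.23 for *Psmd14*, 0.091 to 0.21 for *Psmd4*, 0.11 to 0.21 for *Psmd9*, −0.14 to −0.032 for *Psme3*, −0.24 to −0.10 for *Tap1* and −0.12 to −0.027 for *Vcp*. Medians ranged from 0.075 to 0.13 for the core alpha ring, 0.095 to 0.16 for the beta subunits without an active site, 0.035 to 0.088 for the constitutive catalytic subunits, −0.057 to 0.068 for the immunoproteasome subunits, 0.053 to 0.11 for the regulatory particle ATPases, 0.0016 to 0.11 for the other base subunits, 0.078 to 0.15 for the regulatory particle lid, 0.053 to 0.14 for the regulatory particle chaperones, 0.042 to 0.13 for the core assembly chaperones and 0.11 to 0.15 for the activators and inhibitor. Of 33 named genes in 22 settings, 8 changed sign in at least 1, and 4 did so outside the leave-outs. In other settings the log2 fold change of Psmb7 was 0.010 with upper-quartile scaling, 0.0098 with no filter and 0.0025 with at least 10 reads in every liver, the log2 fold change of Psmb10 was 0.011, 0.0091 and 0.0028 in these settings, the log2 fold change of Psme4 was 0.0014 with upper-quartile scaling and 2.6e-05 with no filter, and the log2 fold change of Psmb9 was −0.0025 with limma voom, and the cause was not tested. With each liver left out these and the other genes whose sign turned ranged from −0.023 to 0.011 for *Psmb7*, −0.057 to 0.058 for *Psmb10*, −0.036 to 0.0076 for *Psme4*, −0.087 to 0.068 for *Psmb9*, −0.040 to 0.051 for *Psmd2*, −0.025 to 0.097 for *Psmd10*, −0.11 to 0.016 for *Psmg2* and −0.32 to 0.067 for *Psmc3ip*. The labels do not pair the mice by replicate number, and the main fit did not treat them as pairs. The correlations of the deviations of same-numbered livers were 0.115, 0.135, −0.0649, 0.104, 0.0403 and 0.106. WT replicates 1 and 4 and LKO replicates 2, 4 and 6 correlated best with their own number in the other group, and the remaining livers did not. With the replicate number as a block, edgeR called 97 genes and 0 members, with a median of 0.11. The alternative with the reads of near copies was chosen after seeing the data. With at least 10 reads in every liver or filterByExpr, *Psma8* and *Psmc3ip* were not tested. The median of all genes moved by at most 0.018 under any setting. With 6 livers a group and the SE of most members near 0.07, log2 fold changes near 0.1 could not be told from 0 for single members, and *Psma8* and *Psmc3ip* are limited by their few reads.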
